A study of Mus musculus with 6 samples.

Results

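Translation factors are the proteins that bring messenger RNA and the ribosome together and move the ribosome along the message, and their genes are described here in microglia of a mouse model of Alzheimer's disease with and without interleukin-3. The genes were chosen by symbol, from all rows beginning Eif1 to Eif6 or Eef1 or Eef2. Of 20129 genes in the deposited table, 68 matched, 3 were set aside by name (the kinase gene Eif2ak2 and the sex-linked pair Eif2s3x and Eif2s3y), 4 lay below the expression filter and 61 remained. The filter asked for at least 1 CPM (counts per 1000000 reads of the library) in at least 3 of the 6 libraries, and 11900 genes of the table passed it. The lowest gene inside it was Eif4a-ps4, with a mean of 3.98 CPM over the 6 libraries. The 4 outside were Eef1a2 (0.728 to 1.06 CPM over the libraries), Eif4ebp3, Eif3s6-ps1 and Eif5al3-ps (all at most 0.364 CPM).

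The symbols cover more than translation factors. Eif2c1, Eif2c2, Eif2c3 and Eif2c4 are old symbols of the Argonaute genes Ago1 to Ago4, whose proteins carry small RNAs, and Eif4a-ps4 is a pseudogene. Most of the other 56 encode initiation or elongation factors or proteins that act on them. Exceptions include Eef1e1, of the tRNA synthetase complex, and Eif4a3, of the exon junction complex.

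The cells were live CD45+ CD11b+ cells sorted as microglia from brains of C57BL6/J mice aged 5 months. Both groups carried the 5xFAD transgenes, mutant human genes under the neuronal Thy1 promoter that lead to amyloid deposits. One group was 5xFAD (replicates 4, 5 and 6), and the other was Il3-/-5xFAD, which also lacked the cytokine gene Il3 (replicates 1, 2 and 3). By the labels 2 male and 2 female mice were pooled for every library. No group without the 5xFAD transgenes is compared here, so the contrast is Il3 loss within the amyloid model. The labels do not tie pools to separate litters or days, and the p-values measure the spread between these 3 pools per group.

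Library totals ran from 27970850 to 37605490 reads. Il3 itself was at 1.93, 2.08 and 0.771 CPM in 5xFAD replicates 4, 5 and 6 and had no read in any Il3-/-5xFAD library, where 3 reads would be 0.101, 0.107 and 0.0909 CPM. The 6 genes that mark microglia summed to between 29437 and 31130 CPM in 5xFAD and between 30050 and 33389 CPM in Il3-/-5xFAD, and no gene of that list was at 0 in all libraries. Some pools went against their sex labels. Transcripts of 4 Y-linked genes summed to 270, 221 and 243 CPM in 5xFAD replicates 4 and 6 and Il3-/-5xFAD replicate 1, but to 7.86, 0.213 and 5.82 CPM in 5xFAD replicate 5 and Il3-/-5xFAD replicates 2 and 3. Xist, which is expressed from the inactive X chromosome of females, was at 3.54 and 26.5 CPM in 5xFAD replicates 4 and 6 and at 165 to 760 CPM in the other 4 libraries, so Il3-/-5xFAD replicate 1 alone held both signals at over 100 CPM. Differences within the libraries low and high in Y-linked transcripts are given as values beside some results. Each such class has 1 library on one side (5xFAD replicate 5 in the low class, Il3-/-5xFAD replicate 1 in the high class), and the high class mixes libraries with unlike Xist levels. Of 9 marker lists for other cells, 5 had sums lower in Il3-/-5xFAD with no overlap between the groups: 207 to 818 against 1196 to 3210 CPM for 9 neutrophil genes, 65.9 to 127 against 137 to 192 CPM for 6 monocyte genes, 30.9 to 42.8 against 72.1 to 126 CPM for 8 lymphocyte genes, 63.1 to 130 against 182 to 515 CPM for 5 choroid plexus genes and 157 to 171 against 186 to 199 CPM for 5 oligodendrocyte genes. The sums for astrocytes (130 to 151 against 142 to 170 CPM), neurons (2.48 to 3.43 against 2.53 to 4.63 CPM), endothelium and mural cells (55.3 to 59.7 against 54.7 to 73.9 CPM) and border-associated macrophages (94.2 to 124 against 116 to 148 CPM) overlapped. None of these genes was at 0 in all 6 libraries, and their part in the results below was not tested. In bulk samples, fewer cells of a type and less RNA per cell cannot be told apart.

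Translation begins when initiation factors (eIFs) place the small ribosomal subunit and the initiator tRNA on the start codon. eIF4 proteins bind the cap and unwind the message, eIF3 is the large scaffold on the small subunit, and eIF2 delivers the initiator tRNA and is recharged by eIF2B. Stress kinases slow the process by phosphorylating eIF2, and 4E-BP proteins slow it by holding the cap-binding factor eIF4E. Elongation factors (eEFs) then bring in each charged tRNA and move the ribosome on. Several of these messages, above all those of the elongation factors, belong to the class with a pyrimidine tract at the 5′ end, as do those of ribosomal proteins, and that class is known for translational control by the kinase mTOR.

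No translation factor gene passed the test of Il3 loss. Limma with Benjamini-Hochberg adjustment over all 11900 genes called 0 of the 61 at an adjusted p under 0.05, while it called 0.882% of all tested genes (0.630% lower and 0.252% higher in Il3-/-5xFAD). The lowest limma adjusted p among the 61 was 0.102, for the eIF3 subunit gene Eif3k. At an unadjusted limma p under 0.05 there were 12 of the 61 (19.7%), beside 16.5% of all tested genes. Of these, 10 were lower (16.4%, beside 9.83% of all tested genes) and 2 were higher (3.28%, beside 6.69%). The share of 19.7% lies near the background of 16.5%, and the split by direction is a description. Other tools gave similar unadjusted counts: 11 of the 61 with edgeR's quasi-likelihood test (16.3% of all tested genes) and 11 with DESeq2 (16.8%). At an adjusted p under 0.05 edgeR called none of the 61 (0.504% of all tested genes), and DESeq2 called Eef1a1 alone, as lower (5.09% of all tested genes, 3.45% lower).

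**Figure D1:**
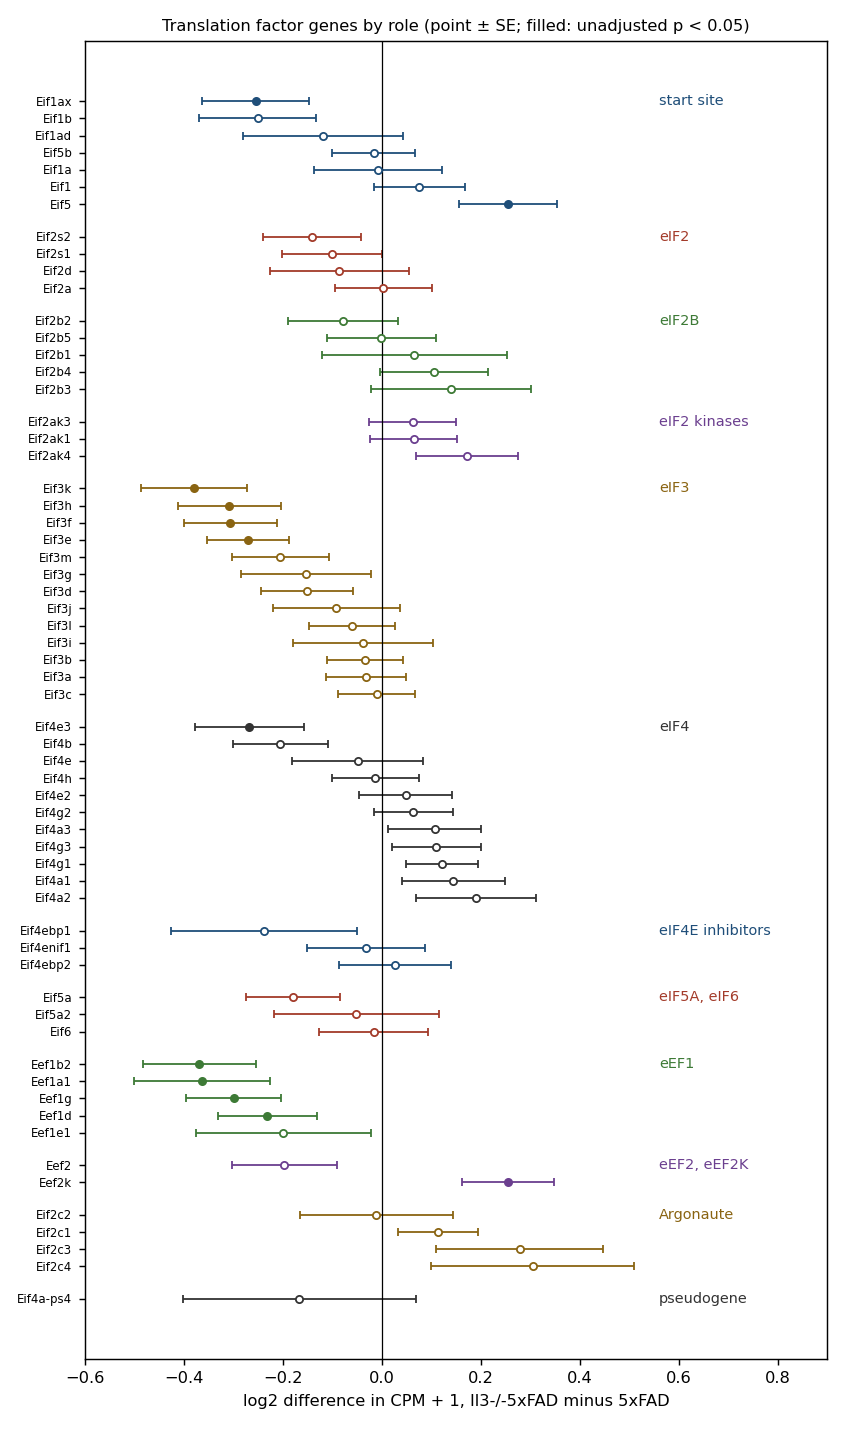
Log2 difference in CPM + 1 (Il3-/-5xFAD minus 5xFAD, x axis) for each of the 61 genes, ordered by role, with the standard error from limma as the bar; filled points have an unadjusted p under 0.05. All 13 eIF3 points (11 after length correction) and all 5 eEF1 points lie left of 0, the lowest being Eif3k at -0.38, while the eIF4 points lie on both sides.

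The observed differences were small, and the intervals below bound each gene singly, not the 61 together. Log2 differences of the 61 genes, all on the log2(CPM + 1) scale, ran from -0.38 to 0.30 with a median of -0.034, beside a median of -0.00059 over all tested genes. The median of the 61 was -0.073 without 5xFAD replicate 4, -0.059 without Il3-/-5xFAD replicate 3 and -0.022 without 5xFAD replicate 5. The limma 95% interval of every one of the 61 lay within 1 log2 unit on either side of 0, and that of 48 lay within 0.5. In 13 of the 61 genes the 2 groups did not overlap (21.3%, beside 21.2% of all tested genes). In 12 of these Il3-/-5xFAD was the lower group (19.7%, beside 11.5%), and in 1 it was the higher (1.64%, beside 9.65%).

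As messages, the 61 genes held 1.57%, 1.64% and 1.67% of the reads in 5xFAD replicates 4, 5 and 6 and 1.35%, 1.51% and 1.504% in Il3-/-5xFAD replicates 1, 2 and 3. Most of that gap came from a single gene, Eef1a1, which alone made up 39.3% to 40.9% of these reads in 5xFAD and 31.8% to 36.7% in Il3-/-5xFAD. Il3-/-5xFAD replicate 1 held the lowest value of the 6 libraries in 18 of the 61 genes and Il3-/-5xFAD replicate 3 in 4.

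The eEF1 genes, which apart from Eef1e1 encode the complex that delivers charged tRNA to the ribosome and reloads its own GTPase, had the lowest median of any role group of 2 or more genes (-0.30). All 5 differences were negative, that of Eef1e1 included. Eef1a1, the GTPase that carries the tRNA, was at 6177, 6719 and 6684 CPM in 5xFAD replicates 4, 5 and 6 and at 4311, 5482 and 5511 CPM in Il3-/-5xFAD replicates 1, 2 and 3. The groups did not overlap, and Il3-/-5xFAD replicate 1 stood lowest. The Il3-/-5xFAD mean was 0.782 times that of 5xFAD, or -0.36 ± 0.14 in log2 (± SE, as for all log2 differences here, limma adjusted p = 0.209). The call by DESeq2 (adjusted p = 0.0287) was not made by edgeR (adjusted p = 0.161).

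Eef1b2, the exchange factor that reloads eEF1A with GTP, was at 360, 395 and 425 CPM in the 5xFAD libraries, against 251, 324 and 343 CPM in Il3-/-5xFAD. Again all 3 Il3-/-5xFAD libraries lay below all 3 of 5xFAD (-0.37 ± 0.11 in log2, limma adjusted p = 0.129). Eef1g, a structural subunit of the exchange complex, was at 165, 159 and 164 CPM and at 114, 140 and 144 CPM (-0.30 ± 0.10 in log2, limma adjusted p = 0.143). Eef1d, the other exchange subunit, had a smaller difference (-0.23 ± 0.10, limma adjusted p = 0.270), also with no overlap. Eef1e1, whose protein sits in the tRNA synthetase complex and shares only the name, overlapped between the groups at 15.1 to 17.0 CPM and 11.7 to 18.3 CPM. The eEF1 median was -0.19 without Il3-/-5xFAD replicate 1. Within the libraries low in Y-linked transcripts 4 of the 5 differences were negative (median -0.16), and within those high in them all 5 were (median -0.53).

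Eef2, the translocase that moves the ribosome by a codon, and its kinase Eef2k, which inactivates it by phosphorylation, had differences of opposite sign. Eef2 was at 1764, 1973 and 2089 CPM in the 5xFAD libraries, against 1530, 1764 and 1789 CPM in Il3-/-5xFAD, overlapping groups with a log2 difference of -0.20 ± 0.11 (limma adjusted p = 0.383). Eef2k was at 231, 189 and 211 CPM in the 5xFAD libraries, against 265, 230 and 258 CPM in Il3-/-5xFAD. The lowest Il3-/-5xFAD library lay just under the highest of 5xFAD, and the log2 difference was 0.25 ± 0.09 (limma adjusted p = 0.190).

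**Figure D2:**
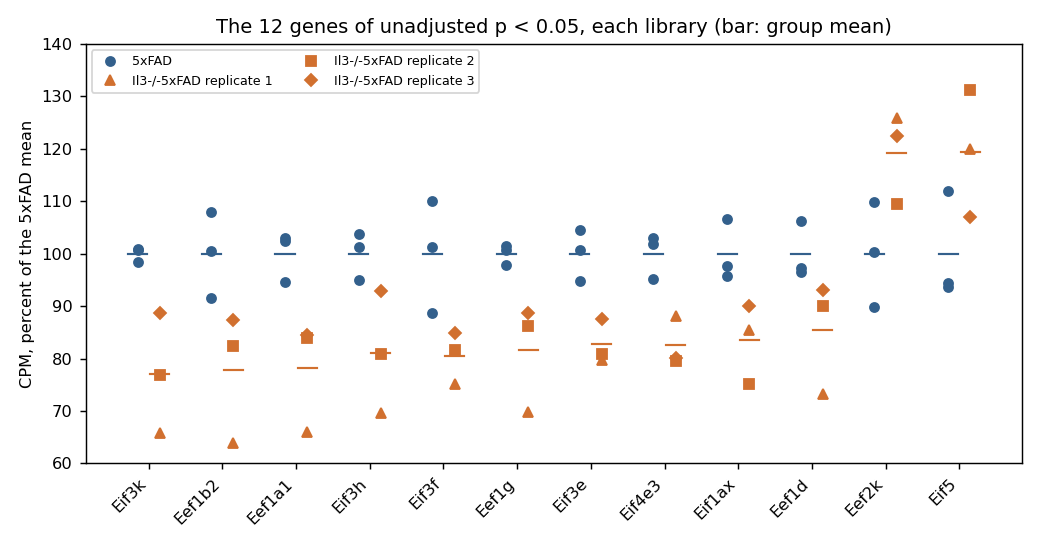
CPM of each library as a percent of the 5xFAD mean (y axis) for the 12 genes of unadjusted limma p under 0.05 (x axis, by log2 difference), with short bars at the group means; blue circles are the 3 5xFAD libraries and orange marks the 3 Il3-/-5xFAD libraries. In the 10 genes on the left all orange marks lie below all blue ones, with Il3-/-5xFAD replicate 1 lowest in most; in Eef2k and Eif5 on the right the groups overlap.

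Among the eIF3 genes some subunits had non-overlapping groups and others had narrow intervals around 0. Subunits were not tested against each other, and such intervals can overlap, as for Eif3a (-0.21 to 0.14) and Eif3e (-0.45 to -0.090). All 13 differences were negative (median -0.15; 11 of 13 with the length correction described below and without some single libraries). That median ran from -0.071 without Il3-/-5xFAD replicate 2 to -0.20 without Il3-/-5xFAD replicate 3. Of the 13, 4 had an unadjusted limma p under 0.05, all lower (30.8%, beside 9.83% of all tested genes), and in 6 the Il3-/-5xFAD libraries all lay below those of 5xFAD (46.2%, beside 11.5%). In the mammalian complex subunits a, c, e, f, h, k, l and m form a core built of PCI and MPN domains, b, g and i form another module, and d and j attach to the outside. The non-overlapping groups lay mostly among the smaller core subunits. Eif3k was at 86.3, 88.3 and 88.6 CPM in the 5xFAD libraries, against 57.8, 67.4 and 77.8 CPM in Il3-/-5xFAD, a log2 difference of -0.38 ± 0.11. Eif3h, one of the MPN-domain subunits, was at 143, 157 and 153 CPM and at 105, 122 and 140 CPM (-0.31 ± 0.10 in log2, limma adjusted p = 0.157). For both genes the 3 Il3-/-5xFAD libraries were spread widely, with replicate 1 lowest and replicate 3 nearest to 5xFAD.

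Eif3f, the other MPN-domain subunit, was at 152, 173 and 188 CPM in the 5xFAD libraries, against 128, 140 and 145 CPM in Il3-/-5xFAD (-0.31 ± 0.09 in log2, limma adjusted p = 0.126). Eif3e, a PCI-domain subunit, was at 106, 117 and 113 CPM and at 89.2, 90.5 and 97.9 CPM (-0.27 ± 0.08 in log2, limma adjusted p = 0.126). Here the 3 Il3-/-5xFAD libraries lay close together, and the difference was -0.31 within the libraries low in Y-linked transcripts and -0.29 within those high in them. Eif3m and Eif3d also did not overlap, with log2 differences of -0.20 and -0.15 (limma adjusted p of 0.329 and 0.448).

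Eif3a, the largest subunit and the base of the core, was at 318, 351 and 370 CPM in the 5xFAD libraries, against 329, 348 and 337 CPM in Il3-/-5xFAD, a log2 difference of -0.032 with a 95% interval from -0.21 to 0.14. Eif3c, its partner in the core, was at 213 ± 8.79 CPM and 212 ± 11.7 CPM (SD, n = 3), with an interval from -0.18 to 0.16. Eif3b (interval from -0.20 to 0.13) and Eif3l (-0.25 to 0.13) likewise had narrow intervals around 0. The signs of Eif3a and Eif3c turned positive without some single libraries. Eif3g, Eif3i and Eif3j overlapped between the groups, with log2 differences from -0.15 to -0.038. Within the libraries low in Y-linked transcripts 10 of the 13 eIF3 differences were negative, and within those high in them all 13 were.

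**Figure D3:**
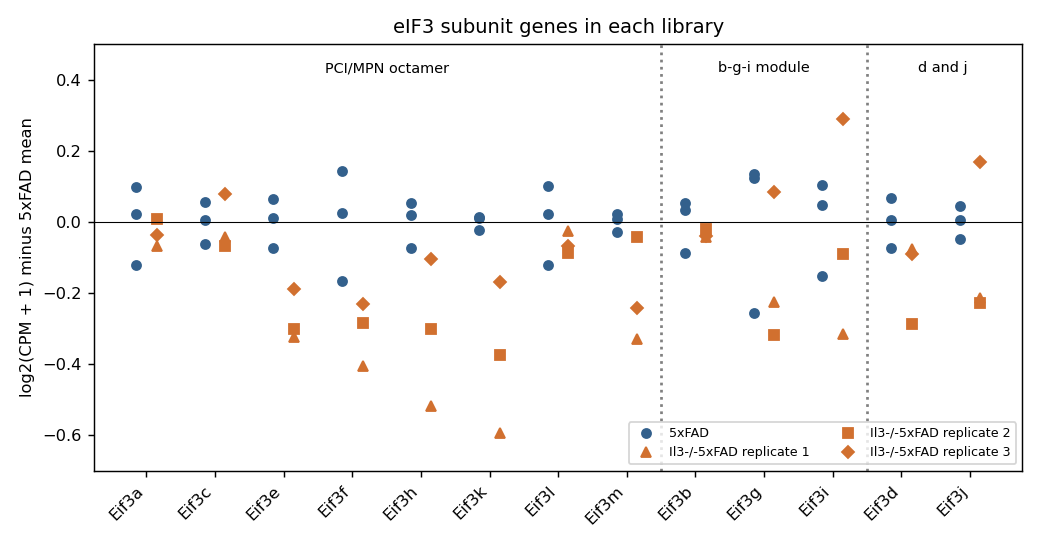
Log2(CPM + 1) of each eIF3 subunit gene minus its mean over the 3 5xFAD libraries (y axis), in each library, with the subunits grouped by their place in the complex (x axis). Il3-/-5xFAD libraries lie below all 5xFAD libraries for Eif3e, Eif3f, Eif3h, Eif3k, Eif3m and Eif3d, and around 0 for Eif3a, Eif3c and Eif3b.

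Start regions are shown for a few of these genes because the elongation factor and some eIF3 messages are known for a pyrimidine tract at the 5′ end. Each line holds 50 bases before and 30 bases from the RefSeq transcription start on the coding strand (5′ to 3′, RefSeq promoter table, GRCm38.p6, a build other than that of the files), and capitals mark every run of at least 7 pyrimidines that begins with C. Eef2 and the 2 eIF3 genes after it had lower means in Il3-/-5xFAD, Eif3a and Eif3c had intervals around 0, and Eif5 had a higher mean.
Eef2 (chr10:81176581-81176660, plus strand): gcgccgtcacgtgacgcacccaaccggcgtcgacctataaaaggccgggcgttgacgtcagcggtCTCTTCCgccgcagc
Eif3f (chr7:108934365-108934444, plus strand): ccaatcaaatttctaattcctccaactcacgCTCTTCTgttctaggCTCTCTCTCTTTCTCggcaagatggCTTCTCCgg
Eif3k (chr7:28981859-28981938, minus strand): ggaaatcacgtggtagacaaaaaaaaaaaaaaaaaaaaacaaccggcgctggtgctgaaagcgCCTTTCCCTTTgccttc
Eif3a (chr19:60790664-60790743, minus strand): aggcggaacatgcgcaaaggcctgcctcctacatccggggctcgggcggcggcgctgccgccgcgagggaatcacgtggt
Eif3c (chr7:126566337-126566416, minus strand): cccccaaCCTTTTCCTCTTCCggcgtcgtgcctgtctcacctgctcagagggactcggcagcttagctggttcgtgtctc
Eif5 (chr12:111538051-111538130, plus strand): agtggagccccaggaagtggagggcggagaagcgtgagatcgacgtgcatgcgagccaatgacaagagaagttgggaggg
Eif3f carries such runs before, across and after its start. In Eif3k and Eef2 the run lies within the 30 bases from the start, though not at the start itself. In Eif3c the run lies well before the start. Of the 61 genes 48 had an entry, and 21 of these (43.8%) held a run in this window, beside 38.9% of 9379 tested genes with an entry. Among the 10 genes that were lower at an unadjusted p under 0.05, 5 had an entry and 3 held a run. Those with a run were Eef1a1, Eif3f and Eif3k, while Eef1b2 and Eif1ax, not printed above, held none. Eef2 is not among these 10, and the printed genes do not show how often runs go with lower means. The search was made on the coding strand only, RefSeq starts may be some bases from the start used in these cells, and a run is a match of letters, not a measured element.

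Among the 7 genes grouped here under start codon selection, Eif5b and Eif1ad included, 5 differences were negative and 2 positive. Eif5, whose protein triggers GTP hydrolysis by eIF2 at the start codon, was at 307, 259 and 257 CPM in the 5xFAD libraries, against 329, 360 and 294 CPM in Il3-/-5xFAD, a log2 difference of 0.25 ± 0.10 (limma adjusted p = 0.218), and Il3-/-5xFAD replicate 3 fell below the highest 5xFAD library. Eif1ax, the X-linked gene for eIF1A, was at 43.1, 42.2 and 47.0 CPM and at 37.7, 33.2 and 39.7 CPM with no overlap (-0.25 ± 0.11 in log2, limma adjusted p = 0.265). Its autosomal partner Eif1a was at 39.9 ± 6.15 CPM and 39.5 ± 3.78 CPM (SD, n = 3). Eif1, which keeps the ribosome scanning, was at 341 ± 20.02 CPM and 361 ± 39.1 CPM, and its close relative Eif1b was at 56.4 ± 4.46 CPM and 47.4 ± 7.05 CPM (limma adjusted p of 0.735 and 0.318). The Eif1b difference was -0.25, and -0.063 with the length correction. Eif5b, which joins the ribosomal subunits, and Eif1ad had log2 differences of -0.017 and -0.12. Both count among the 5 negative differences, and a part in choosing the start codon is not claimed for them.

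The eIF2 group and its control genes showed little difference. Eif2s1, the subunit that the stress kinases phosphorylate, was at 62.2, 58.6 and 58.5 CPM in the 5xFAD libraries, against 54.4, 50.7 and 62.5 CPM in Il3-/-5xFAD, overlapping groups with a log2 difference of -0.10 ± 0.10 (limma adjusted p = 0.667). Eif2s2, the beta subunit, was at 55.2 ± 3.88 CPM and 49.96 ± 3.12 CPM (SD, n = 3). Eif2a and Eif2d, which can carry initiator tRNA without eIF2, had log2 differences of 0.0025 and -0.086. Of the 5 eIF2B genes, 3 differences were positive and 2 negative, from -0.079 (Eif2b2) to 0.14 (Eif2b3), and no group of libraries stood apart. Eif2b5, the catalytic subunit, was at 43.0 ± 4.78 CPM and 42.8 ± 1.74 CPM (SD, n = 3), and Eif2b4 had a log2 difference of 0.11 ± 0.11.

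The 3 eIF2 kinases had positive differences, all within overlapping groups. Eif2ak4, which encodes the amino acid sensor GCN2, was at 41.3, 40.4 and 37.8 CPM in the 5xFAD libraries, against 47.4, 46.8 and 41.0 CPM in Il3-/-5xFAD (0.17 ± 0.10 in log2, limma adjusted p = 0.439). Eif2ak3, which encodes the endoplasmic reticulum sensor PERK, and Eif2ak1, which encodes the haem-regulated kinase HRI, had log2 differences of 0.062 and 0.064, with 95% intervals from -0.13 to 0.25 and from -0.13 to 0.26.

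The eIF4 genes went in both directions, with 7 of 11 differences positive and a median of 0.064 (0.022 without Il3-/-5xFAD replicate 3). Eif4e3, an atypical cap-binding relative of eIF4E, was at 31.7, 34.0 and 34.4 CPM in the 5xFAD libraries, against 29.4, 26.5 and 26.8 CPM in Il3-/-5xFAD. Its groups did not overlap (-0.27 ± 0.11 in log2, limma adjusted p = 0.248). Eif4b, the cofactor of the helicase, was at 350, 401 and 417 CPM and at 304, 337 and 372 CPM, with Il3-/-5xFAD replicate 3 above the lowest 5xFAD library (-0.21 ± 0.10 in log2, limma adjusted p = 0.317).

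The helicase genes Eif4a1 and Eif4a2, which unwind the 5′ end of the message, were at 390 ± 27.3 and 453 ± 53.4 CPM in the 5xFAD libraries, against 433 ± 60.1 and 519 ± 84.2 CPM in Il3-/-5xFAD (SD, n = 3; limma adjusted p of 0.534 and 0.469). Eif4g1, the scaffold that joins cap, helicase and eIF3, was at 339, 331 and 359 CPM in the 5xFAD libraries, against 370, 372 and 375 CPM in Il3-/-5xFAD. It was the only one of the 61 genes in which all Il3-/-5xFAD libraries lay above all 5xFAD libraries, by a log2 difference of 0.12 ± 0.07 (limma adjusted p = 0.443). Eif4g2, which supports initiation without the cap-binding protein, was the most abundant eIF4 gene at 832 ± 5.56 CPM and 870 ± 41.2 CPM, and Eif4g3 was at 226 ± 14.3 and 244 ± 22.1 CPM. Eif4e, the main cap-binding protein, was at 44.8 ± 5.13 CPM and 43.5 ± 7.28 CPM, and Eif4e2, a repressive relative, at 81.7 ± 7.16 CPM and 84.4 ± 4.88 CPM. Neither Eif4a3, the helicase of the exon junction complex, nor the cofactor gene Eif4h differed by more than 0.11 in log2.

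None of the genes that hold eIF4E in check passed. Eif4ebp1, which encodes 4E-BP1, the repressor released by mTOR, was at 17.8, 20.7 and 23.1 CPM in the 5xFAD libraries, against 16.3, 13.4 and 23.0 CPM in Il3-/-5xFAD (-0.24 ± 0.19 in log2, limma adjusted p = 0.573). The 3 Il3-/-5xFAD values spanned more than the 5xFAD range, so the interval was wide (-0.65 to 0.17). Eif4ebp2 was at 39.3 ± 2.52 CPM and 40.1 ± 4.41 CPM, and Eif4enif1, the eIF4E transporter gene, at 54.8 ± 6.14 CPM and 53.6 ± 6.88 CPM (SD, n = 3). Eif5a, the hypusine-carrying factor that helps stalled ribosomes, was at 229, 224 and 241 CPM in the 5xFAD libraries, against 178, 208 and 229 CPM in Il3-/-5xFAD (-0.18 ± 0.09 in log2, limma adjusted p = 0.373). Il3-/-5xFAD replicate 3 again reached the 5xFAD range. Eif6, which keeps the large subunit from joining too early, was at 59.8 ± 4.47 CPM and 59.3 ± 7.75 CPM, and Eif5a2 was at 12.4 ± 1.95 CPM and 11.8 ± 0.843 CPM.

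Levels per transcript length let genes be compared with each other. On the scale of CPM per kb of the longest GENCODE transcript, Eef1a1 stood highest at 3638 ± 169 in 5xFAD and 2844 ± 382 in Il3-/-5xFAD (SD, n = 3), followed by Eef2 at 629 ± 53.4 and 548 ± 46.2 and Eif1 at 258 ± 15.1 and 273 ± 29.6. The spread of Eif1 does not reach that of Eef2. In the eIF3 complex, whose core subunits are present once each in the protein, the level per kb of the core genes in 5xFAD ran from 27.1 ± 1.31 (Eif3e) to 117 ± 5.34 (Eif3h). Eif3j, whose protein attaches to the outside, was at 6.20 ± 0.204, and it shared 36.9% of its stretches of 50 bases with other genes. Eif3a (67.5 ± 5.16), Eif3f (68.0 ± 7.29), Eif3g (71.7 ± 10.6) and Eif3c (63.0 ± 2.60) did not differ beyond their spread. eIF2, eIF2B and kinase genes all stood under 20 CPM per kb, among them Eif2s1 at 17.6 ± 0.626 and Eif2b2 at 19.6 ± 0.524. The longest transcript need not be the one used in these cells, so these levels are approximate.

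**Figure D4:**
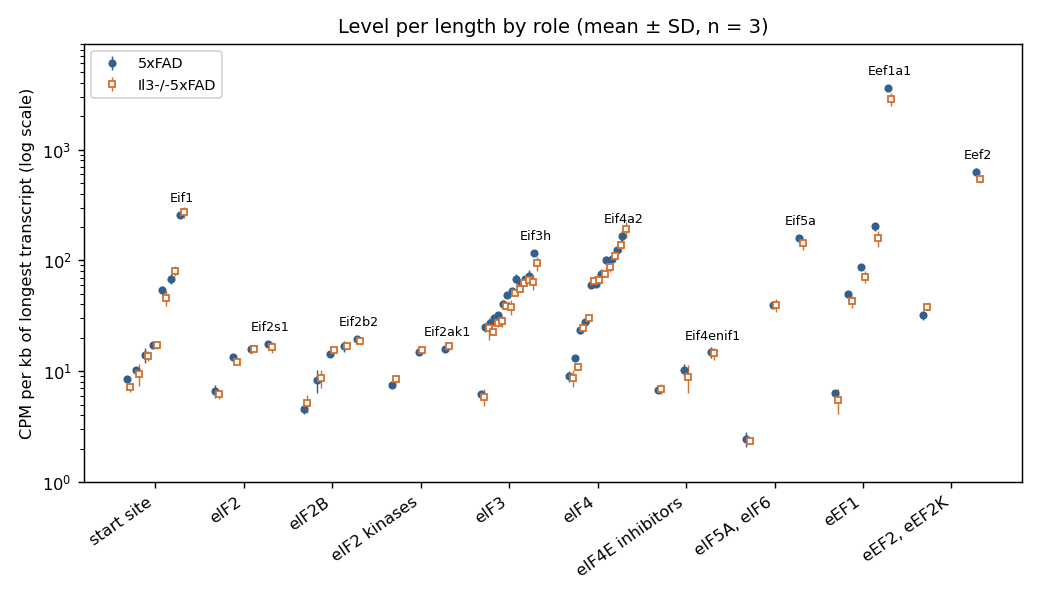
Mean level in CPM per kb of the longest GENCODE transcript (y axis, log scale) with SD over 3 libraries for each gene, by role (x axis), 5xFAD as blue circles and Il3-/-5xFAD as orange squares; the highest gene of each role is named. Eef1a1 at 3638 and Eef2 at 629 in 5xFAD lie above every other gene, and the eIF2, eIF2B and eIF2 kinase genes lie under 20.

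The 7 pairs of close relatives were tested as ratios within each library, which do not depend on library scaling. Eif4a1 stood at 0.818, 0.891 and 0.884 times the CPM of Eif4a2 in 5xFAD and at 0.750, 0.908 and 0.862 times in Il3-/-5xFAD. The largest shift was between Eif1 and Eif1b, whose ratio was 5.95, 6.36 and 5.88 in 5xFAD and 9.64, 7.94 and 5.80 in Il3-/-5xFAD (difference in log2 ratio 0.33). Two-sided exact permutation tests gave p from 0.2 (Eif4ebp1 to Eif4ebp2, difference in log2 ratio -0.28) to 0.9 (Eif4g1 to Eif4g3), and adjusted over the 7 pairs from 0.817 to 0.9. With 3 libraries per group such a test cannot go below 0.1. The ratio of Eif5a to Eif5a2 was 15.7 to 22.1 in 5xFAD and 14.1 to 20.8 in Il3-/-5xFAD.

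Transcript length moved with the differences. Across the 61 genes the log2 difference was higher with the length of the longest transcript (Spearman's rho 0.502, n = 61 genes that share the 6 libraries), as it did across 11753 tested genes with a length (rho 0.3). The 30 shorter genes had a median log2 difference of -0.15 and the 31 longer ones 0.0025. With each library's trend against length removed, the 10 lower genes of unadjusted p under 0.05 had a median log2 difference of -0.28 in place of -0.30. These 10 were picked by their difference in the same libraries, so their median is expected to stay low. For groups set by role, the eEF1 median went from -0.30 to -0.23 and the eIF3 median from -0.15 to -0.12, and 11 of 13 eIF3 differences stayed negative. Single genes shifted more: Eif3h went from -0.31 to -0.17, Eif1b from -0.25 to -0.063 and Eif5a from -0.18 to -0.061. Away from 0 went Eif1ax, from -0.25 to -0.31, and Eif3e, from -0.27 to -0.30. The eIF4 median went from 0.064 to 0.011. Summed reads of 79 genes for cytosolic ribosomal proteins, whose messages are mostly short, were also lower, with no overlap, at 23828, 25372 and 26194 CPM in 5xFAD replicates 4, 5 and 6 against 15830, 19790 and 21992 CPM in Il3-/-5xFAD replicates 1, 2 and 3. Limma called 3 of the 79 lower and 1 higher (0.630% and 0.252% of all tested genes), and 72 were lower at an unadjusted p under 0.05 (9.83% of all tested genes). Their median log2 difference was -0.41, and -0.25 with the length correction. Il3-/-5xFAD replicate 1 was the lowest library there, as it was for the eEF1 sum (4792 CPM, beside 6087 and 6150 CPM in the other Il3-/-5xFAD libraries and 6856 to 7441 CPM in 5xFAD).

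**Figure D5:**
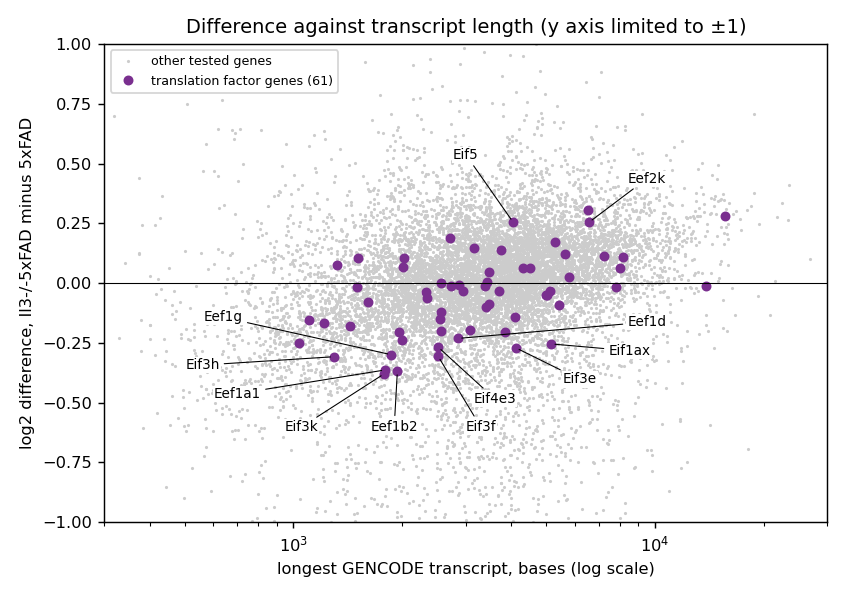
Log2 difference (Il3-/-5xFAD minus 5xFAD, y axis) against the longest GENCODE transcript in bases (x axis, log scale) for the 61 genes in purple and other tested genes in grey; the 12 genes of unadjusted p under 0.05 are named. The eEF1 genes and the lower eIF3 genes Eif3f, Eif3h and Eif3k lie among the shorter transcripts. Among the longer ones are Eif3e (4123 bases) and Eif1ax (5172 bases), also lower genes, and the higher genes Eif5 (4050 bases) and Eef2k (6580 bases).

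Some values are shared between near copies. Counting stretches of 50 bases in GENCODE transcripts, 42 of the 61 genes shared under 5% of them with other genes and 6 shared over 20%. Eif4a-ps4 shared 95.7% with Eif4a1, so its 3.98 CPM cannot be told apart from that gene. Eef1g shared 44.2% (with 5 other genes), Eef1a1 39.4% (with 20, of which Gm13456 was counted at 4.95 CPM), Eif3j 36.9% (mostly with Eif3j2), Eif4a1 28.4% and Eif3h 20.3%. The assignment of reads in such stretches is not given in the sources used, so the levels of these 6 genes are less certain.

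Limma called none of the 61 genes without any one of 5 libraries, but without Il3-/-5xFAD replicate 3 it called Eef1b2, Eif3h and Eif3k lower (adjusted p of 0.0499, 0.0376 and 0.0285), beside 3.12% of all tested genes called lower. That library had the fewest genes with a read, 14435 beside 15740 to 17245 in the others. Its counts also lay furthest from those of its group. Chi-square per degree of freedom was 49.6 and 45.2 against Il3-/-5xFAD replicates 1 and 2, and 27.9 between those. What set it apart was not tested. With array weights, which let libraries count unequally, 5 were called lower (Eef1b2, Eif3e, Eif3f, Eif3h and Eif3k, beside 5.08% of all tested genes) and Eif5 higher (beside 2.92%), with limma adjusted p from 0.0178 to 0.0355.

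Other genes of the translation pathway gave no call either. Of 65 tested genes in 7 lists, limma called 0 and 9 had an unadjusted p under 0.05 (13.8%, beside 16.5% of all tested genes; 5 lower and 4 higher), with a median log2 difference of 0.045. Pabpc1, which binds the poly(A) tail and whose message also carries a 5′ pyrimidine tract, was at 768, 894 and 939 CPM in the 5xFAD libraries, against 656, 787 and 761 CPM in Il3-/-5xFAD (-0.24 ± 0.10 in log2, limma adjusted p = 0.273), with Paip2b, a regulator of that protein, at -0.14. In the mTOR list Rps6 was at 201 ± 6.90 CPM and 163 ± 23.3 CPM (-0.30 ± 0.10, limma adjusted p = 0.157) and Tsc1, a brake on mTOR, at 52.2 ± 2.98 and 62.5 ± 6.78 CPM (0.25 ± 0.10, limma adjusted p = 0.253). In 4 of the 12 genes of that list all Il3-/-5xFAD libraries lay above all 5xFAD libraries (33.3%, beside 9.65% of all tested genes): Rptor, Tsc2 and the eIF4E kinase genes Mknk1 and Mknk2, with log2 differences of 0.17, 0.17, 0.18 and 0.11. None of these 4 passed, and they were named after their values were seen. Transcripts of this list were long, with a median of 4316 bases beside 3386 over all tested genes. The median log2 difference of the list was 0.155, and 0.085 with the length correction.

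In the stress response list 6 of 8 differences were positive. Ppp1r15a, which encodes the phosphatase subunit that reverses eIF2 phosphorylation and was named after its values were seen, was at 640, 512 and 482 CPM in the 5xFAD libraries, against 759, 837 and 575 CPM in Il3-/-5xFAD (0.40 ± 0.14 in log2, limma adjusted p = 0.173). The groups overlapped through Il3-/-5xFAD replicate 3. Asns, an amino acid synthetase gene induced by the same response, was low at 3.86 ± 2.50 and 1.49 ± 0.610 CPM (-0.85 ± 0.38, limma adjusted p = 0.289), and Trib3 was at 0.293 to 2.18 CPM. Of 22 tRNA synthetase and cofactor genes 11 differences were negative and 11 positive, the lowest being Dars (-0.25 ± 0.11, limma adjusted p = 0.275) and then Aimp1 (-0.20). Among mitochondrial factors, Mtif2 had a difference of 0.23 ± 0.10 and Mtrf1 of -0.50 ± 0.23 (limma adjusted p of 0.305 and 0.293). Dohh and Dph5, which modify eIF5A and eEF2, were at -0.26 and 0.11, and the termination and recycling factors Etf1 and Abce1 at 0.10 and 0.091.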

How the data were processed

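RNA was sequenced from 6 libraries of sorted microglia, 3 per genotype, each from 1 pool of mice. Per the labels' protocols, the kit was directional and selected polyA RNA. The authors deposited CPM values, each library summing to 1000000. STAR, HTSeq, edgeR and the build mm9 come from the submitters' processing notes. Versions, annotation, counting mode and filters: not given in the sources used here. Every CPM value was a whole multiple of 1 read (100% of values, within 0.01 reads), so reads were recovered for the count tests, with 1 read worth 0.0266 to 0.0358 CPM.

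The main test was limma 3.58.1 in R 4.3.3 (eBayes with trend, two-sided) on log2(CPM + 1), over 11900 genes (1 CPM or more in 3 or more libraries), Benjamini-Hochberg adjusted. The log2(CPM + 1) scale understates changes of low genes. Alternatives were pseudocounts of 0.25 and 5, other filters, scalings and variance settings, edgeR 4.0.16, DESeq2 1.42.0, a length correction, each library left out, and, added after seeing the data, a term for the class of library by Y-linked transcripts (over or under 20 CPM). Simulated reads for 11786 genes tested the limma step: it recovered 84% of the 1.5-fold changes and 100% of the 2-fold ones. Of its 203 calls, 13 were false. Every simulated gene had the same dispersion, unlike genes in real libraries, and all 61 differences reported here were smaller than 1.5-fold. The recovery therefore does not show the power for differences of this size. The members, the role groups and the lists were chosen with earlier results of these data known. Named by rule were, per role group, the 3 largest differences and the 2 most abundant genes, and paralogue pairs; in other lists the 2 largest differences. Further genes complete small counts. GENCODE M21 and RefSeq tables (GRCm38) gave lengths, symbols and sequences; all 61 genes had a length.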

Additional observations from a re-analysis of the deposited data

How the results depend on the processing

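The median log2 difference of the 61 genes stayed negative in all 19 alternatives, and it ran from -0.073 to -0.022 with single libraries left out. Of all tested genes 105 were called by limma as described, 8 with no filter, 68 with a mean of at least 5 CPM, 68 with median-ratio scaling, 10 with no variance trend, 952 with array weights, 60 with edgeR, 605 with DESeq2, 60 with the length correction, 198 with the term for Y-linked class, and 15 to 605 with single libraries left out. Of the 61 genes the main test called 0 lower and 0 higher. Array weights called 5 lower and 1 higher, DESeq2 called 1 lower, and single libraries left out gave 0 to 3 lower; the cause was not tested. Of 779 values of the 41 genes named by rule, 729 kept their direction and side of the threshold, 9 passed it and 41 changed sign, all of the latter in 13 genes near 0. With median-ratio scaling Eif2b5 was at 0.0015. With quantile normalization Eif2a, Eif2b5 and Eif5a2 were at -0.013, 0.0039 and 0.014. With array weights Eif1a, Eif2a, Eif2b5 and Eif4ebp2 were at 0.039, -0.017, 0.038 and -0.024. With the length correction Eif1a, Eif2a, Eif2b2, Eif2b5, Eif4ebp2, Eif4g2 and Eif6 were at 0.012, -0.0031, 0.017, 0.029, -0.039, -0.037 and 0.094. With the Y-linked term Eif2a and Eif2b5 were at -0.037 and 0.045. Without single libraries the ranges were -0.13 to 0.093 (Eif1a), -0.063 to 0.044 (Eif2a), -0.092 to 0.062 (Eif2b5), -0.093 to 0.017 (Eif3a), -0.056 to 0.018 (Eif3c), -0.18 to 0.044 (Eif4e), -0.024 to 0.098 (Eif4e2), -0.059 to 0.085 (Eif4ebp2), -0.13 to 0.048 (Eif4enif1), -0.17 to 0.047 (Eif5a2) and -0.12 to 0.057 (Eif6). Differences in log2 ratio of pairs ranged from -0.10 to 0.034 (Eif4a1 to Eif4a2), -0.24 to 0.017 (Eif4e to Eif4e2), -0.070 to 0.065 (Eif4g1 to Eif4g3) and -0.26 to 0.021 (Eif5a to Eif5a2). No paired analysis was possible because the groups share no replicate number. The 3 pools per group limit the precision: the 95% intervals of the 61 genes reached 0.228 (median) and at most 0.513 to either side. Without Il3-/-5xFAD replicate 3, which gave the 3 calls, 605 genes were called.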

Other observations

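The Argonaute genes matched by their old symbols overlapped between the groups. Eif2c1 (Ago1) averaged 162 ± 7.30 CPM in the 5xFAD libraries, against 175 ± 11.5 CPM (SD, n = 3) in Il3-/-5xFAD, and Eif2c2 (Ago2), the slicing member, at 63.3 ± 2.66 and 64.1 ± 15.9 CPM. Eif2c3 (Ago3) had log2 differences of 0.090 within the libraries low in Y-linked transcripts and 0.63 within those high in them, and Eif2c4 (Ago4) of 0.56 and 0.13.

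Of the 61 genes, 5 lie on chromosome 11, which also carries Il3. Eif4a1 and Eif5a lie on the side of higher gene order, with 142 and 155 tested genes between them and Il3, and had log2 differences of 0.14 and -0.18 (limma adjusted p of 0.534 and 0.373). Of the genes set aside by name, Eif2s3y and Eif2s3x varied with sex-linked signal. Eif2s3y was at 64.8, 1.33 and 54.5 CPM in 5xFAD replicates 4, 5 and 6 and at 55.6, 0.0355 and 1.85 CPM in Il3-/-5xFAD replicates 1, 2 and 3. Its X-linked partner Eif2s3x was at 19.7, 37.6 and 25.8 CPM and at 24.2, 36.4 and 35.6 CPM. Eif2ak2, the interferon-induced kinase PKR, was at 38.2 to 64.1 CPM and 52.9 to 76.5 CPM.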
